A study of Mus musculus with 16 samples.

Results

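Complement is a blood and tissue defence system that is also made by brain cells. The genes described here encode 9 of its components and receptors: the C1q chains (C1qa, C1qb and C1qc), the central component C3, the alternative pathway proteins factor B (Cfb) and properdin (Cfp), the receptors for the peptides C3a (C3ar1) and C5a (C5ar1), and the membrane regulator Cr1l, also known as Crry. They were taken by gene symbol from an RNA-seq table of 13982 genes, and all 9 were found. The table holds 16 libraries from brain cortex of C57BL/6 mice, made from sorted cells that carried CD45 and CD11b stain and are labelled microglia. There were 4 groups of 4 libraries: Sham, middle cerebral artery occlusion (MCAO), which models ischaemic stroke, MCAO with Ctrl-exos and MCAO with AS-exos. Exosomes, the small vesicles that cells release, were injected into the tail vein of MCAO mice at 150 μg every 3 days starting on the day of surgery. They came from plasma of ApoE KO mice on a western diet or a normal diet. The protocol, which is the same for all libraries, gives 12 weeks for the western diet. Which of the diets stands behind Ctrl-exos and which behind AS-exos is not said in the labels. The protocol names infarct cortex as the tissue, without a separate statement for Sham mice. The age and sex of the mice, the time from surgery to sorting, and whether each library is a separate mouse were not given in the sources used here, so p-values measure only the spread between these libraries, which may in part be technical.

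Complement starts when C1q binds a target (the classical pathway), when lectins bind sugars, or when C3 is activated on a surface and factor B and properdin amplify it (the alternative pathway). All routes cleave C3, and further cleavage of C5 follows. The small fragments C3a and C5a act on C3ar1 and C5ar1, while the large C3 fragments coat the target and are bound by the integrin receptors on phagocytes. Microglia, the resident macrophages of the brain, are a main source of C1q there, and C1q and C3 are known for tagging synapses and debris for removal. Properdin and C5ar1 are known from blood neutrophils and monocytes.

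The sequences just before the start sites of some of these genes are shown because the C1q chains are neighbours that were all lower in MCAO than in Sham. Another reason is that C3 and Cfp were near 0 in Sham and present after MCAO. C1qa, C1qc and C1qb lie within 18719 bases of chromosome 4 in GRCm38.p6, in that order along their shared minus strand, with C1qa at chr4:136895916-136898844, C1qc at chr4:136889801-136892936 and C1qb at chr4:136880126-136886200. RefSeq start-site windows of that build were given for 7 of the 9 genes, with none for C1qa and Cfb. The 250 bases before the start are given for C1qb (chr4:136886201-136886450), C1qc (chr4:136892915-136893164), C3 (chr17:57228137-57228386) and Cfp (chrX:20931556-20931805). The last 22 bases of the C1qc window lie inside the gene as placed above, because its start site in the window table is further in. All 4 are on the minus strand and are written 5′ to 3′ toward the gene, with motif matches in capitals:
C1qb: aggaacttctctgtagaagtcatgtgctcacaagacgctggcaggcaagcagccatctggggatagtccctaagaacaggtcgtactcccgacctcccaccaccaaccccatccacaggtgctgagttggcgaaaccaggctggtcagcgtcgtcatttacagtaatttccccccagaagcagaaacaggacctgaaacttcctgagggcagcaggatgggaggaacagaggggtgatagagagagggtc
C1qc: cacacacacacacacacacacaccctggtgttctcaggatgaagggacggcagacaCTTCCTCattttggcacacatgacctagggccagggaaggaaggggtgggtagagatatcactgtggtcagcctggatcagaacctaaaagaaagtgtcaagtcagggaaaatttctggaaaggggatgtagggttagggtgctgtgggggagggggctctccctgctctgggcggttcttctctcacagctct
C3: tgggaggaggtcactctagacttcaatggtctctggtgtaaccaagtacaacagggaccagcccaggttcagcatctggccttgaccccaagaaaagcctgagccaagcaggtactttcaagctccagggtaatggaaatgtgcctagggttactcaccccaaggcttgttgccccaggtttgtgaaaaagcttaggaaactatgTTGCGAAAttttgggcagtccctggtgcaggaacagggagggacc
Cfp: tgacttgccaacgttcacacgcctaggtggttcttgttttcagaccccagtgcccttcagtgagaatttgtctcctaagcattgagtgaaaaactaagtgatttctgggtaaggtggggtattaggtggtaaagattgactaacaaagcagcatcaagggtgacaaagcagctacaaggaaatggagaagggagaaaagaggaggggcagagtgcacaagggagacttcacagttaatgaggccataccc
The windows were searched on both strands for PU.1 (GAGGAAG), MAF (TGCTGAC), NF-kB (GGGNNTTCC), C/EBP (TTGCNNAA), ISRE (GAAA, any 2 bases, GAAA) and AP-1 (TGANTCA). The PU.1 letters were found in C1qc on the reverse strand, at -194 to -188 from the start, and in 10.6% of all 32851 windows of this length. The C/EBP letters were found in C3 at -45 to -38 and in 9.56% of all windows. The AP-1 letters were found in C3ar1 at -22 to -16 and in 6.75% of all windows. The MAF, NF-kB and ISRE letters, present in 3.81%, 4.98% and 2.98% of all windows, were in none of the 7 members' windows. Of the C5ar1 window, which is not printed, 202 of the 250 bases lie inside the gene as RefSeq places it. A match is a description of letters and not of binding.

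Values are FPKM, in which a gene's fragments are divided by its length and by the library's own fragment total, so levels can be set side by side between genes. Library totals were 758283 to 983648 FPKM, and the files hold no counts, so depth is unknown. Within MCAO+Ctrl-exos, library 1 stood apart with a total of 784006 against 936101 to 983648 in the other three. Within MCAO+AS-exos, the log2 values of libraries 1 to 3 correlated across genes at 0.979 to 0.985, closer than any replicates of the other groups (0.868 to 0.937). Library 4 correlated with them at 0.905 to 0.921, inside the range of replicates of the other groups. It correlated with the MCAO libraries at 0.915 to 0.937 and with the Ctrl-exos libraries at 0.921 to 0.931. Both ranges reach above that with its own group. Without counts it could not be tested whether libraries 1 to 3 differ by more than sampling noise. Counts of calls in AS-exos against MCAO and against Ctrl-exos are therefore given also without library 4 and with libraries 1 to 3 averaged to 1 library. The averaged fit was chosen after seeing the data and leaves 2 libraries in that group. Single values from these fits are given only for some genes and comparisons. The labelled cell type was checked against markers. All 10 microglial markers were present in every group, and they summed to 20840 to 22941 FPKM in Sham but to 1164 to 1975 in MCAO, 1320 to 1383 in MCAO+Ctrl-exos and 1260 to 1913 in MCAO+AS-exos. The 8 monocyte markers summed to 6.66 to 97.2 in Sham and to 1517 to 5302 over the MCAO groups, with none at 0 in a whole group. The 7 border macrophage markers summed to 2.75 to 60.1 in Sham and 1737 to 5495 over the MCAO groups. Pf4 was the largest of them in MCAO (median 2833 FPKM), before Ms4a7 (431), Cbr2 (137), Mrc1 (81.1) and Folr2 (56.7). Lyve1 (3.5) and Cd163 (1.98) were low there. Of 11 neutrophil markers 7 were in the table, summing to 76.7 to 144 in Sham and 1625 to 9677 over the MCAO groups. Ly6g, a defining one, was at 0 throughout Sham and MCAO. It had 0 to 9.25 FPKM (median 0) in MCAO+Ctrl-exos and 0 to 2.77 (median 0.92) in MCAO+AS-exos. In the MCAO groups, therefore, markers go against a pure microglial label, and the part of other cells in each result below was not tested except where a value is given.

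**Figure D1:**
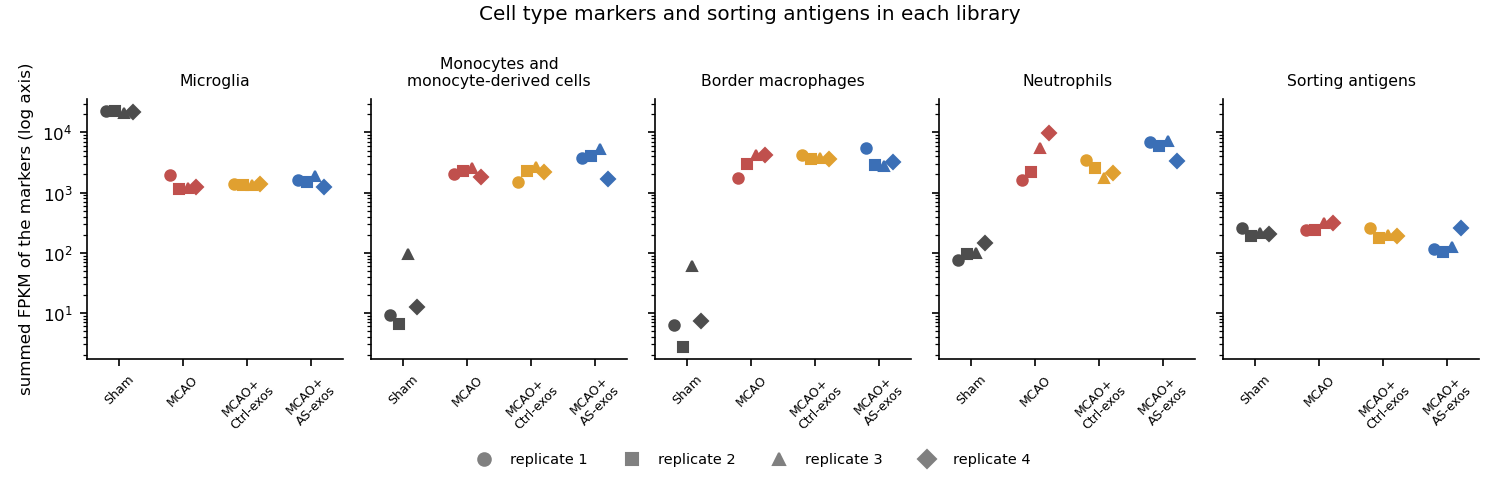
Summed FPKM (log axis) of markers of microglia, monocytes, border macrophages and neutrophils, and of the sorting antigens Ptprc (CD45) and Itgam (CD11b), in each library; symbols are replicates. Microglial sums were 20840 to 22941 in Sham and 1164 to 1975 in MCAO, and library 4 of MCAO+AS-exos had the lowest monocyte sum (1709) and the highest sorting antigen sum (263) of its group.

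The 3 C1q chains were lower, and C3, Cfb, Cfp, C3ar1 and C5ar1 were higher, in MCAO than in Sham. Of the 9 genes 5 rose, 3 fell and 1 (Cr1l) did not pass the threshold, which was an adjusted p below 0.05 in limma over 10846 genes. The background was large: 24.5% of all genes tested rose and 14.8% fell. C3, Cfb and Cfp reached the filter of 1 FPKM in 4 libraries only through the MCAO groups, so their rise was built into their being tested. The median change of the 9 was 0.68 on the log2 scale, beside 0.25 over all genes tested. With quantile normalization the median over all genes became -0.03 and the share of calls that were higher fell from 62.4 to 49.1%, and the same 8 members were called in the same directions, with Cr1l lower as a ninth.

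Ctrl-exos gave no call among the 9 genes against MCAO, where 0.0461% of all genes rose and 0.0277% fell. At an unadjusted p below 0.05 there were 3 members (C1qa, C3 and Cr1l) and 1181 genes in all, and no other setting called a member. AS-exos against Ctrl-exos gave 1 member higher (Cr1l) and none lower, where 0.157% of all genes rose and 0.129% fell. AS-exos against MCAO gave 2 higher (C1qa and C1qb) and none lower, where 1.06% rose and 5.08% fell. Against Sham, Ctrl-exos gave 5 higher and 4 lower (background 22.1% higher and 16.6% lower), and AS-exos gave 5 higher and 3 lower (background 20.7% higher and 19.1% lower). The comparisons share groups, so they are not independent of each other. Where the libraries of groups are said below not to overlap, the share of all genes that separate in the same way was not computed. Such a separation is therefore a description only. With totals scaled to be equal, the share of all calls that were higher went from 57 to 47.5% for Ctrl-exos and from 51.9 to 45.8% for AS-exos against Sham. Without library 4 of MCAO+AS-exos, 3 members were called higher against Ctrl-exos and 4 against MCAO, but the libraries left are the closely alike ones. With libraries 1 to 3 averaged, no member was called in either comparison, in which 1 and 0 genes were called in all.

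**Figure D2:**
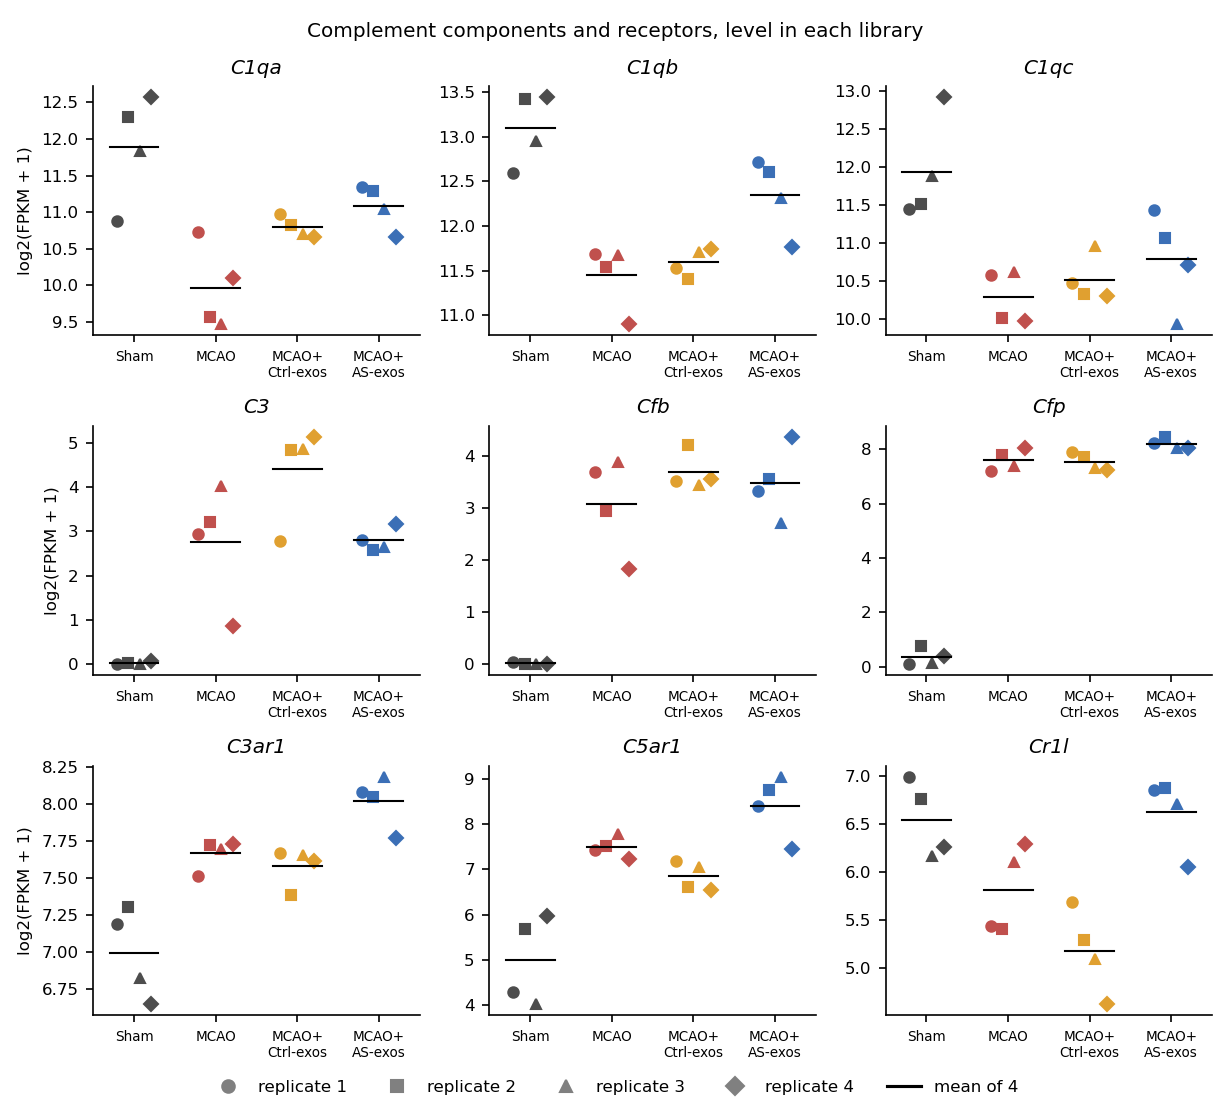
Level of the 9 genes, as log2(FPKM + 1), in each of 16 libraries by group; symbols are replicates and lines are means of 4, and the vertical scale differs between panels. The C1q chains are highest in Sham, C3, Cfb and Cfp are near 0 in Sham, and library 4 of MCAO+AS-exos lies below the other three of its group for C1qa, C1qb, C3ar1, C5ar1 and Cr1l.

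C1q is the recognition molecule of the classical pathway, built from A, B and C chains. C1qb had 6170.97, 10975.03, 7928.92 and 11128.55 FPKM in the Sham libraries, which placed it between the 3rd and the 9th highest gene of each. It had 3288.07, 2989.17, 3265.03 and 1917.17 FPKM in MCAO. Every MCAO library was below every Sham library. The fall was -1.65 ± 0.23 (log2 fold change ± SE, adjusted p = 1.38e-05), or 0.32 of the Sham level. C1qa, the A chain, had 1876.98, 5056.50, 3664.52 and 6080.90 FPKM in Sham and 1698.57, 756.84, 709.94 and 1096.17 in MCAO. The groups did not overlap, although the lowest Sham library lay close to the highest MCAO library. The difference was -1.93 ± 0.31 (adjusted p = 5.66e-05). C1qc, the C chain, had 2781.92, 2929.52, 3786.42 and 7737.87 FPKM in Sham and 1524.44, 1036.76, 1566.90 and 1005.86 in MCAO, again without overlap. Its difference was -1.64 ± 0.32 (adjusted p = 4.04e-04). These calls held under all 28 alternatives, with adjusted p from 5.32e-07 to 0.00525 over the chains.

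Summed, the chains made 1.41 to 3.29% of the library total of FPKM in Sham and 0.478 to 0.857% in MCAO. The ratio of C1qa to C1qb was 0.304 to 0.546 in Sham and 0.217 to 0.572 in MCAO, and that of C1qc to C1qb was 0.267 to 0.695 and 0.347 to 0.525, so these ranges overlapped. The C1qa to C1qb ratio was 0.474 to 0.683 with Ctrl-exos and 0.387 to 0.465 with AS-exos, without overlap. That of C1qc to C1qb was 0.369 to 0.596 with Ctrl-exos and 0.192 to 0.484 with AS-exos, with overlap. The microglial marker sum also fell between Sham and MCAO, from at least 20840 to at most 1975 FPKM. Fewer cells of a type and less RNA per cell cannot be told apart in such bulk samples.

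With AS-exos, C1qb had 6713.74, 6251.77, 5088.85 and 3479.61 FPKM, against 2955.33, 2712.04, 3350.15 and 3425.97 with Ctrl-exos. All 4 AS-exos libraries were above all MCAO and Ctrl-exos libraries, and library 4 was only just above. C1qb rose against MCAO by 0.90 ± 0.23 (adjusted p = 0.0361). The difference from Ctrl-exos was 0.75 ± 0.23 (adjusted p = 0.0969), and it was 0.95 (adjusted p = 0.0106) without library 4. With libraries 1 to 3 averaged, C1qb was 0.70 against MCAO (adjusted p = 0.622) and 0.56 against Ctrl-exos (adjusted p = 0.912). The call against MCAO was lost in 7 of 16 fits that left out 1 library, those without any of the 4 MCAO libraries or of AS-exos libraries 1 to 3 (adjusted p 0.0548 to 0.14). With quantile normalization it was 0.64 (adjusted p = 0.183), and with length and GC trends removed it was 0.54 (adjusted p = 0.119).

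C1qa had 2598.27, 2501.26, 2115.37 and 1617.60 FPKM with AS-exos and 2018.64, 1810.44, 1668.67 and 1623.67 with Ctrl-exos. These groups overlapped, as did AS-exos and MCAO through MCAO library 1. C1qa rose against MCAO by 1.12 ± 0.31 (adjusted p = 0.0415), and it differed from Ctrl-exos by 0.29 ± 0.31 (95% interval -0.35 to 0.94, adjusted p = 0.636). The call against MCAO was lost in 9 of 16 fits that left out 1 library (adjusted p 0.0501 to 0.145): each of the 4 MCAO libraries, Ctrl-exos libraries 2 and 3, and AS-exos libraries 1 to 3. It was 0.98 (adjusted p = 0.622) with AS-exos libraries 1 to 3 averaged. C1qc, with 2765.09, 2152.57, 979.51 and 1683.68 FPKM under AS-exos and 1428.02, 1290.30, 1998.08 and 1262.93 under Ctrl-exos, overlapped across the MCAO groups. It was not called against MCAO (0.49 ± 0.32, adjusted p = 0.341) or against Ctrl-exos (0.27 ± 0.32, adjusted p = 0.679). The chains of 1 complex therefore gave 2 calls and 1 value short of the threshold, and whether C1qc differs from the other chains was not tested.

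Against Sham, the chains were lower in each exosome group. With Ctrl-exos the differences were -1.10 for C1qa (adjusted p = 0.00788), -1.51 for C1qb (adjusted p = 3.80e-05) and -1.42 for C1qc (adjusted p = 0.00148), all with SE 0.23 to 0.32. With AS-exos they were -0.81 for C1qa (adjusted p = 0.0431), -0.75 for C1qb (adjusted p = 0.0154) and -1.15 for C1qc (adjusted p = 0.00741). C1qa and C1qb of AS-exos, and C1qa of Ctrl-exos, overlapped Sham through Sham library 1. Without AS-exos library 4 neither C1qa nor C1qb of AS-exos passed, at -0.67 (adjusted p = 0.119) and -0.56 (adjusted p = 0.0557). With libraries 1 to 3 averaged, C1qa was -0.95 (adjusted p = 0.0878) and C1qb and C1qc passed. The C1qb call was also lost without Sham library 2 (adjusted p = 0.0535), and the C1qa call in 8 of 16 fits that left out 1 library (adjusted p 0.0504 to 0.146): Sham libraries 2 to 4, Ctrl-exos libraries 2 and 3, and AS-exos libraries 2 to 4.

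**Figure D3:**
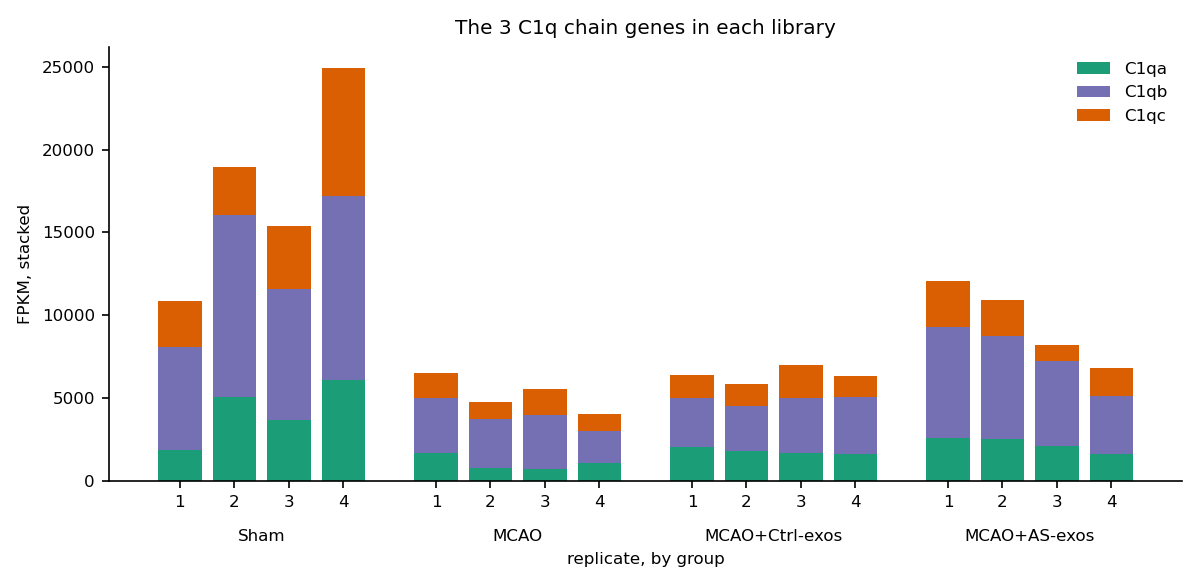
FPKM of C1qa, C1qb and C1qc, stacked, in each library by group and replicate. The stacks reach 10830 to 24947 in Sham, 4019 to 6511 in MCAO, 5813 to 7017 in MCAO+Ctrl-exos and 6781 to 12077 in MCAO+AS-exos.

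C3 is the component that all pathways cleave. It was listed at 0.00, 0.01, 0.00 and 0.04 FPKM in Sham and at 6.64, 8.29, 15.28 and 0.80 in MCAO. All MCAO libraries were above all Sham libraries, and MCAO library 4 was the low one. On the log2(FPKM + 1) scale, which understates changes of low genes, the rise was 2.74 ± 0.56 (adjusted p = 7.12e-04). Without MCAO library 4 it was 3.37 (adjusted p = 2.37e-05). With Ctrl-exos C3 had 5.90, 27.75, 28.26 and 34.15 FPKM, and with AS-exos 6.00, 4.93, 5.29 and 7.93. Ctrl-exos libraries 2 to 4 were the highest C3 values of the study, and library 1, the library with the low total, lay among the AS-exos values. Neither Ctrl-exos against MCAO (1.65 ± 0.56, 95% interval 0.47 to 2.83, adjusted p = 0.297) nor AS-exos against Ctrl-exos (-1.61 ± 0.56, 95% interval -2.79 to -0.43, adjusted p = 0.127) passed the threshold. Without Ctrl-exos library 1 these values were 2.20 (adjusted p = 0.0594) and -2.15 (adjusted p = 0.0634), and without MCAO library 4 the first was 1.02 (adjusted p = 0.446). Both share the Ctrl-exos libraries. AS-exos differed from MCAO by 0.04 ± 0.56 (95% interval -1.14 to 1.22, adjusted p = 0.974). Against Sham C3 rose by 4.39 ± 0.56 with Ctrl-exos (adjusted p = 3.85e-06) and by 2.78 ± 0.56 with AS-exos (adjusted p = 6.33e-04).

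Cfb encodes factor B, the protease of the alternative C3 convertase. It was listed at 0.02 FPKM in Sham library 1 and at 0 in the others, and had 11.88, 6.67, 13.76 and 2.54 in MCAO. The rise was 3.08 ± 0.44 (adjusted p = 1.42e-05). It had 10.54, 17.65, 9.91 and 10.82 FPKM with Ctrl-exos and 9.08, 10.75, 5.52 and 19.58 with AS-exos. The 3 MCAO groups overlapped one another. The differences were 0.61 ± 0.44 for Ctrl-exos against MCAO (adjusted p = 0.631), 0.41 ± 0.44 for AS-exos against MCAO (adjusted p = 0.598) and -0.20 ± 0.44 for AS-exos against Ctrl-exos (adjusted p = 0.844). The last had a 95% interval of -1.12 to 0.71. Without MCAO library 4 the first was 0.19 (adjusted p = 0.899). Against Sham Cfb rose by 3.68 with Ctrl-exos (adjusted p = 1.38e-06) and by 3.48 with AS-exos (adjusted p = 2.91e-06).

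Cfp encodes properdin, which stabilises the alternative convertase. It had the largest rise of the 9 genes in each comparison with Sham. Sham libraries had 0.08, 0.68, 0.10 and 0.32 FPKM and MCAO libraries 147.32, 220.30, 164.14 and 265.94. The difference was 7.26 ± 0.26 (adjusted p = 2.14e-14). In MCAO properdin RNA was thus at 199 ± 54.2 FPKM (SD, n = 4), while Cfb was at 8.71 ± 5.09 and C3 at 7.75 ± 5.96. Ctrl-exos libraries had 236.79, 209.64, 156.98 and 148.23 FPKM, and AS-exos libraries had 297.51, 346.99, 263.21 and 262.18. All AS-exos libraries were above all Ctrl-exos libraries, and they overlapped MCAO through MCAO library 4. The difference of AS-exos from Ctrl-exos was 0.65 ± 0.26 (95% interval 0.12 to 1.19, adjusted p = 0.169), that of AS-exos from MCAO 0.58 ± 0.26 (adjusted p = 0.159), and that of Ctrl-exos from MCAO -0.07 ± 0.26 (95% interval -0.61 to 0.46, adjusted p = 0.939). Against Sham Cfp rose by 7.18 with Ctrl-exos (adjusted p = 2.43e-14) and by 7.84 with AS-exos (adjusted p = 5.64e-15). Monocyte markers rose from at most 97.2 to at least 1517 summed FPKM in the same libraries and neutrophil markers from at most 144 to at least 1625. In MCAO the largest neutrophil markers were S100a8 and S100a9 (medians 2899 and 852 FPKM), and Ly6g was at 0. Mmp8 and Cxcr2 also rose in MCAO against Sham (4.08 and 1.32, adjusted p = 1.10e-07 and 0.0166). Retnlg (3.14, adjusted p = 0.0636) and Csf3r (-0.35, adjusted p = 0.405) did not pass. The part of monocytes and neutrophils in the level of Cfp was not tested.

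C5ar1, the C5a receptor that draws and activates phagocytes, had 18.77, 50.35, 15.43 and 61.64 FPKM in Sham and 170.22, 180.96, 219.57 and 148.73 in MCAO. The groups were well apart, and the rise was 2.49 ± 0.39 (adjusted p = 4.34e-05), or 5.60 times on the log2(FPKM + 1) scale. Ctrl-exos libraries had 144.54, 96.08, 131.77 and 92.56 FPKM, all below all MCAO libraries, at a difference of -0.64 ± 0.39 that did not pass (adjusted p = 0.564). AS-exos libraries had 337.99, 429.11, 522.33 and 172.44 FPKM. Libraries 1 to 3 were the highest of the study, and library 4 fell within the MCAO range. AS-exos differed from Ctrl-exos by 1.56 ± 0.39 (95% interval 0.75 to 2.37, adjusted p = 0.0659), with no overlap, and from MCAO by 0.92 ± 0.39 (adjusted p = 0.141). Without library 4 both passed, at 1.88 (adjusted p = 0.00452) and 1.24 (adjusted p = 0.0318), in a fit whose AS-exos libraries are the closely alike ones. With libraries 1 to 3 averaged the values were 1.24 (adjusted p = 0.912) and 0.60 (adjusted p = 0.751). The comparison with Ctrl-exos also passed when Sham library 1 or Sham library 4 was left out, which changes only the pooled spread.

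The AS-exos libraries high in C5ar1 were also high in the neutrophil marker sum. Neutrophil marker sums were 6833, 5865 and 7157 FPKM in AS-exos libraries 1 to 3 and 3366 in library 4, with 1723 to 3462 in Ctrl-exos. These sums were carried by S100a8 (medians 4705 with AS-exos and 1536 with Ctrl-exos) and S100a9 (1418 and 666). In MCAO libraries 1 to 4 the neutrophil marker sums were 1625, 2172, 5572 and 9677 FPKM. C5ar1 in these had 170.22, 180.96, 219.57 and 148.73 FPKM, so library 4 had the highest sum and the lowest C5ar1 of that group. All 6 neutrophil markers tested had positive log2 differences between AS-exos and Ctrl-exos, from 0.05 (Csf3r) to 2.18 (Retnlg), and none passed (lowest adjusted p = 0.104). Ly6g was not among those tested. Its median was 0.92 FPKM with AS-exos and 0 with Ctrl-exos, and its highest value was 2.77 and 9.25. Monocyte marker sums were 3791, 4061 and 5302 in libraries 1 to 3 and 1709 in library 4, with 1517 to 2619 in Ctrl-exos. That sum was carried by Chil3 (1.44, adjusted p = 0.0802), while 6 of the 8 monocyte markers had negative differences, from -0.26 (Itga4) to -0.98 (Plac8), none of which passed. Itgam, the CD11b used for sorting, had 52.05, 54.70 and 62.69 FPKM in libraries 1 to 3 and 146.22 in library 4, with 78.47 to 136.15 in Ctrl-exos. The part of these in the C5ar1 values was not tested. Against Sham C5ar1 rose by 1.85 ± 0.39 with Ctrl-exos (adjusted p = 8.43e-04) and by 3.41 ± 0.39 with AS-exos (adjusted p = 8.73e-07).

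C3ar1, the C3a receptor, had 145.05, 157.08, 112.10 and 99.31 FPKM in Sham and 181.80, 210.55, 206.63 and 211.49 in MCAO. The groups did not overlap, and the rise was 0.68 ± 0.20 (adjusted p = 0.00973). Ctrl-exos libraries had 202.95, 166.03, 201.21 and 195.40 FPKM and AS-exos libraries 270.78, 263.92, 289.91 and 217.37. All AS-exos libraries were above all libraries of the other groups. The difference from Ctrl-exos, 0.44 ± 0.20 (95% interval 0.03 to 0.85), and that from MCAO, 0.36 ± 0.20, did not pass (adjusted p = 0.222 and 0.257). Ctrl-exos differed from MCAO by -0.08 ± 0.20 (95% interval -0.49 to 0.32, adjusted p = 0.902). C3ar1 rose against Sham by 1.03 ± 0.20 with AS-exos (adjusted p = 3.28e-04). With Ctrl-exos it rose by 0.59 ± 0.20 (adjusted p = 0.0215), a call lost without Sham library 3, Sham library 4 or Ctrl-exos library 3 (adjusted p 0.0524 to 0.0623). That value was 0.36 (adjusted p = 0.149) with quantile normalization and 0.37 (adjusted p = 0.16) with totals scaled to be equal.

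The ratio of C3ar1 to C5ar1 FPKM shows how the receptor pair shifted. It was 1.61 to 7.73 in Sham, with a median of 5.2, and 0.941 to 1.42 in MCAO. It was 1.4 to 2.11 with Ctrl-exos and 0.555 to 1.26 with AS-exos. Sham therefore lay above MCAO in all libraries, and Ctrl-exos above AS-exos in all libraries.

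Cr1l encodes a rodent membrane protein that limits C3 deposition on the cell's own surface. It had 126.02, 107.51, 71.00 and 75.44 FPKM in Sham and 42.29, 41.25, 67.85 and 77.11 in MCAO. The groups overlapped through MCAO library 4, and the difference was -0.74 ± 0.30 (adjusted p = 0.0577). It passed without Sham library 3, Sham library 4, MCAO library 4 or AS-exos library 4 (lowest adjusted p = 0.0341) and with quantile normalization (-0.93, adjusted p = 0.0174). Ctrl-exos libraries had 50.41, 38.10, 32.97 and 23.63 FPKM and AS-exos libraries 114.61, 116.80, 103.83 and 65.18. All AS-exos libraries were above all Ctrl-exos libraries.

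Cr1l was the only 1 of the 9 genes that passed between AS-exos and Ctrl-exos, at 1.45 ± 0.30 (95% interval 0.83 to 2.08, adjusted p = 0.0438), or 2.74 times. The call was lost in 10 of 16 fits that left out 1 library (adjusted p 0.0514 to 0.215): Sham libraries 2 and 3, MCAO libraries 1 and 2, Ctrl-exos libraries 2 to 4 and AS-exos libraries 1 to 3. The log2 difference in those 16 fits was 1.27 to 1.64. Without AS-exos library 4 it was 1.64 (adjusted p = 0.00249), and with AS-exos libraries 1 to 3 averaged it was 1.26 (adjusted p = 0.912). The AS-exos level was 100 ± 24 FPKM (SD, n = 4) beside 95 ± 26.3 in Sham, a difference of 0.08 ± 0.30 (95% interval -0.55 to 0.71, adjusted p = 0.861). Ctrl-exos fell below Sham by 1.37 ± 0.30 on the log2 scale (adjusted p = 0.00117). AS-exos differed from MCAO by 0.82 ± 0.30 (adjusted p = 0.0989), and by 1.01 (adjusted p = 0.0275) without library 4. Ctrl-exos differed from MCAO by -0.64 ± 0.30 (adjusted p = 0.453).

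**Figure D4:**
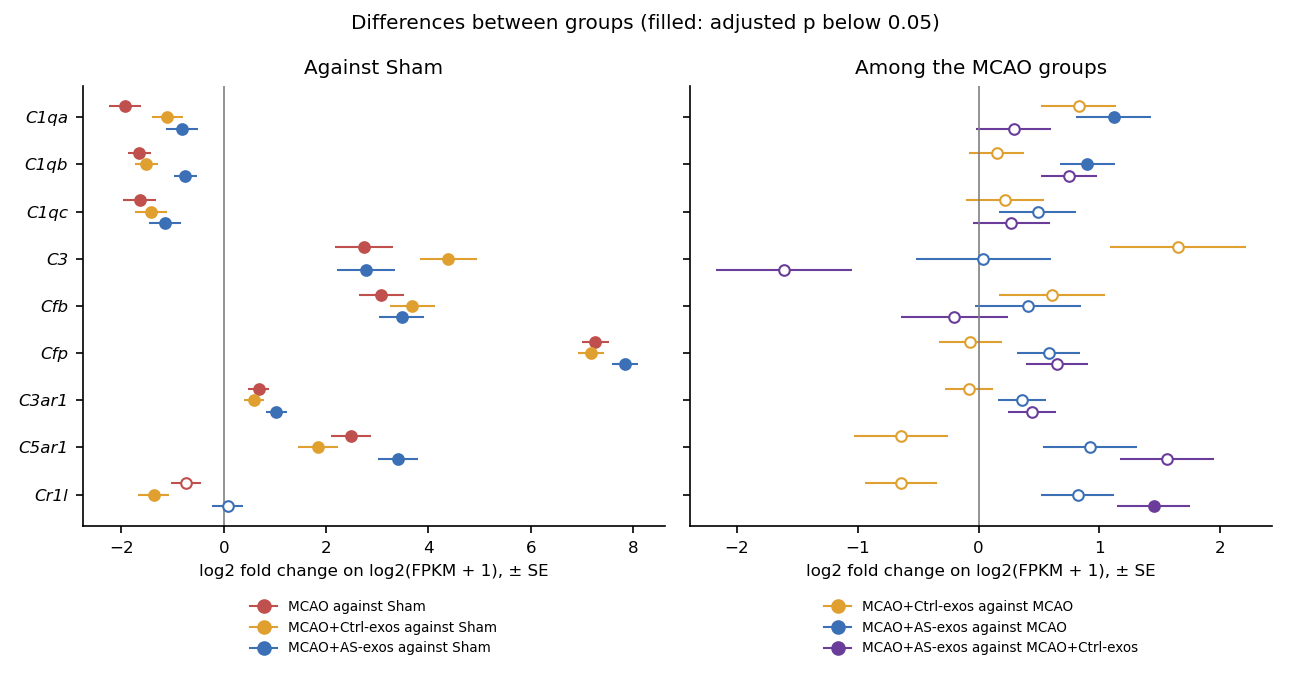
Log2 fold changes on log2(FPKM + 1), with SE as bars, of the 9 genes against Sham (left) and among the MCAO groups (right); filled points passed an adjusted p of 0.05 in limma. Cfp has the largest changes against Sham (7.18 to 7.84), and only C1qa and C1qb (AS-exos against MCAO) and Cr1l (AS-exos against Ctrl-exos) are filled on the right.

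By level, C1qb was the most abundant of the 9 genes in each library. C1qa and C1qc followed, with group means of 4170 and 4309 FPKM in Sham, 1065 and 1283 in MCAO, 1780 and 1495 with Ctrl-exos and 2208 and 1895 with AS-exos. They overlapped in each group, so their order was not settled. In Sham C3ar1 (128 ± 27.2 FPKM, SD, n = 4) and Cr1l (95 ± 26.3) overlapped, C5ar1 (36.5 ± 23) lay below them, and Cfp, C3 and Cfb were below 1 FPKM. In MCAO C3ar1 (203 ± 14), Cfp (199 ± 54.2) and C5ar1 (180 ± 29.7) overlapped, Cr1l (57.1 ± 18.1) lay below, and Cfb and C3 overlapped below that. With Ctrl-exos C3ar1 (191 ± 17.2) and Cfp (188 ± 42.4) overlapped above C5ar1 (116 ± 25.9), followed by Cr1l (36.3 ± 11.2), C3 (24 ± 12.4) and Cfb (12.2 ± 3.63), where C3 overlapped its neighbours. With AS-exos C5ar1 (365 ± 149), Cfp (292 ± 39.9) and C3ar1 (260 ± 30.8) overlapped, with Cr1l (100 ± 24) next and Cfb (11.2 ± 5.98) and C3 (6.04 ± 1.34) overlapping at the low end.

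Other genes of the system were read from a list of 48, of which 30 were in the table and 16 passed the filter. In MCAO against Sham 7 of the 16 rose, 2 fell and 7 did not pass, with a median of 0.78 beside 0.25 over all genes and a background of 24.5% higher and 14.8% lower. Of the 16, 8 reached the filter only with the help of the MCAO groups, and Cd93, Fcna and C8g were below 1 FPKM in every Sham library, so a rise of Cd93 or Fcna was built into their being tested. Of the 8 receptors among them 5, Cd93 included, rose, 1 fell and 2 did not pass, against the same background. Cd93, once described as a C1q receptor, went from 0.04, 0.07, 0.08 and 0.12 FPKM in Sham to 90.15, 88.78, 106.81 and 115.21 in MCAO (6.55 ± 0.25, adjusted p = 4.90e-14). Itgax, the alpha chain of complement receptor 4, rose from 0.13 to 2.44 FPKM over the Sham libraries to 26.82 to 40.60 (4.33 ± 0.43, adjusted p = 1.34e-07). Itgb2, the beta chain that it shares with Itgam, rose by 1.42 ± 0.25 (adjusted p = 1.47e-04). Lrp1, an endocytic receptor, rose by 2.45 ± 0.31 (adjusted p = 3.20e-06).

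C5ar2, the other C5a receptor, fell by 1.08 ± 0.34 (adjusted p = 0.0163) while C5ar1 rose. The ratio of C5ar1 to C5ar2 FPKM was 0.691 to 1.98 in Sham, 10.3 to 32.3 in MCAO, 8.63 to 12.8 with Ctrl-exos and 15.3 to 43.1 with AS-exos. Fcna, a lectin pathway ficolin, was listed at 0 in all Sham libraries and had 4.18 to 13 FPKM in MCAO (2.80 ± 0.66, adjusted p = 0.00231). C4b, a component cleaved by C1 and lectin proteases with a close copy in C4a, rose from at most 1.39 FPKM to 2.07 to 6.27 (1.61 ± 0.51, adjusted p = 0.0174), and reads of such copies can be split by the counting.

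Against Sham, 7 of the 16 rose and 2 fell with Ctrl-exos, and 5 rose and 2 fell with AS-exos, beside 22.1% higher and 16.6% lower, and 20.7% higher and 19.1% lower, over all genes. The same limit of the filter holds. None was called between Ctrl-exos and MCAO or between AS-exos and Ctrl-exos. AS-exos against MCAO gave 1 lower and none higher. It was Itgam, the alpha chain of complement receptor 3 and a sorting antigen, which was 0.50 of the MCAO level on the log2(FPKM + 1) scale (adjusted p = 0.0486). With AS-exos libraries 1 to 3 averaged no gene was called in that comparison. Its AS-exos libraries 1 to 3 were low and library 4 lay in the MCAO range of 121.04 to 187.78 FPKM.

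**Figure D5:**
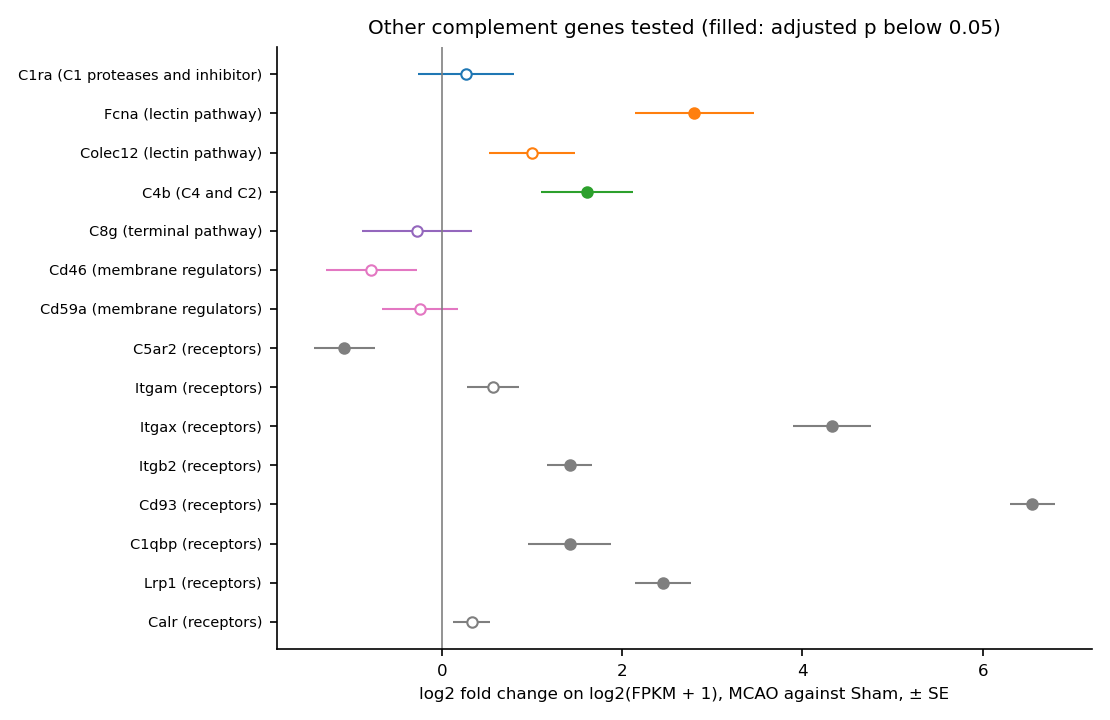
Log2 fold changes on log2(FPKM + 1) in MCAO against Sham, with SE as bars, of 15 of the other complement genes that passed the filter, colored by role; filled points passed an adjusted p of 0.05 in limma. Cd93 has the largest rise (6.55), and C5ar2 (-1.08) is the filled point below 0.

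The genes most like each member over the 16 libraries were taken by the root mean square difference of log2 profiles centred on their means. Trem2, a microglial and macrophage lipid receptor, was the nearest to C1qb (0.22, beside a spread of C1qb itself of 0.73) and to C1qa (0.42, own spread 0.82). It was the second nearest to C1qc (0.37, after Otulinl at 0.35, own spread of C1qc 0.78). Cfp was nearest to Plin2, a lipid droplet protein (0.34, beside its own spread of 3.24). C5ar1 was nearest to Ucp2, a mitochondrial carrier (0.26, own spread 1.36), and C3ar1 to H3f3a and Rhoa (0.16 each, own spread 0.41). Cfb was nearest to Gpr65 (0.54, own spread 1.58), Cr1l to Diablo (0.34, own spread 0.70) and C3 to Tmsb10 (0.85, own spread 1.75). C3 thus had the most distant nearest gene of the 9 in log2 units, but its own spread was also larger than that of all but Cfp. The distances were not scaled by the spread. These are descriptions over libraries that share groups.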

How the data were processed

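RNA of sorted CD45- and CD11b-stained cells was measured in 16 libraries, grouped by their titles. Per the labels' protocols, amplified cDNA was made into transposon-based libraries. The submitters' processing notes name HISAT2, Bowtie2, RSEM 1.3.1 and the genome build GRCm39.p6, without the role of each. The values deposited by the authors were read as FPKM. The unit is not stated and was inferred from RSEM and from totals that differ between libraries (highest over lowest 1.3, or 1.11 when weighted by transcript length); TPM of a subset of genes is the other reading. The files used here hold no counts, so the depth of a library is unknown and counting error could not be given. The table of all libraries and the 16 single files held identical values.

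Tests used log2(FPKM + 1). A gene entered if 4 or more libraries had 1 FPKM or more, which left 10846 tested genes and 3136 untested. Contrasts among 4 group means were fitted over all 16 libraries with limma 3.58.1 in R 4.3.3 (eBayes with trend and robust). All p-values are two-sided and were adjusted by Benjamini-Hochberg over the tested genes, at a threshold of 0.05. The fit was tested on simulated data. Named genes were all 9 members, the 8 tested genes of the complement list with the smallest p in MCAO against Sham and those called elsewhere (at most 4 per comparison), and the nearest profiles among the upper 50% of genes by level, without predicted models. In the complement list 1 gene is counted but not reported here. The members, lists and tests were chosen with earlier results of these data known. Alternatives changed the variance trend, scaling, filter (none, or 5 FPKM), pseudocount (0.1), weights, replicate block and libraries. Promoter windows are RefSeq's for GRCm38.p6, a build other than the one named by the submitters, and were matched by symbol. Figures were drawn with matplotlib 3.10.9 in Python 3.11.15.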

Additional observations from a re-analysis of the deposited data

Results flagged for a closer look

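Each of the 9 genes in each group gave a set of 4 libraries, 36 sets in all, compared as log2(FPKM + 1). For each set, the gap of 1 library to its nearest neighbour was divided by the range of the set on that scale. In 4 sets this ratio passed Dixon's 95% critical value for 4 values. The ratios below are on the log2 scale, while the levels beside them are in FPKM and do not give the ratios directly. Chance passes about 1 in 20 such groups. C3 in MCAO+Ctrl-exos had a low library 1 (5.90 FPKM, the others 27.75 to 34.15) with a ratio of 0.877. Cfb in MCAO+Ctrl-exos had a high library 2 (17.65, the others 9.91 to 10.82) with a ratio of 0.851. C3ar1 in MCAO had a low library 1 (181.80, the others 206.63 to 211.49) with a ratio of 0.846. Cfb in Sham had a ratio of 1, from 0.02 FPKM in library 1 and 0 in the others (the table gives 2 decimals).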

How the results depend on the processing

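The 9 genes in 6 comparisons were recomputed under 28 settings, which gave 1512 values. Of these, 1391 kept direction and side of the threshold, 70 lost a call, 27 gained one and 24 changed sign. In MCAO against Sham, 245 of 252 kept both and 7, all of Cr1l, gained a call. The count of members called in AS-exos against Ctrl-exos, 1, became 0 without the variance trend, without the filter, with a pseudocount of 0.1, in a fit of only the 8 libraries compared, with length and GC trends removed and with AS-exos libraries 1 to 3 averaged. It became 6 with quality weights per library and 4 without AS-exos library 4 and Ctrl-exos library 1 together. Leaving out 1 library gave 0 to 3. In AS-exos against MCAO, 2 members became 0 without the trend, with quantile normalization, in the 8 libraries, with length and GC trends removed and with AS-exos libraries 1 to 3 averaged. The count was 1 with totals scaled to be equal, without the filter and with the replicate block, 6 with quality weights and 4 without both libraries. Leaving out 1 library gave 0 to 4. Over all genes, quality weights called 1226 higher and 2040 lower in AS-exos against Ctrl-exos (17 and 14 without them) and 1138 higher and 2817 lower in AS-exos against MCAO (115 and 551 without them). The cause of these changes was not tested. Averaging leaves fewer libraries. Removing length and GC trends and averaging AS-exos libraries 1 to 3 were chosen after seeing the data.

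The sign changes were all of values that did not pass. For Ctrl-exos against MCAO they were C1qb (-0.24 with quantile normalization, -0.07 with equal totals, -0.22 with length and GC trends removed, -0.04 to 0.22 leaving out 1 library), C1qc (-0.11 with quantile normalization, -0.10 with length and GC trends removed), C3ar1 (0.02 with length and GC trends removed) and Cfp (-0.20 to 0.08 leaving out 1 library). For AS-exos against Ctrl-exos it was Cfb (-0.49 to 0.06 leaving out 1 library, 0.09 with libraries 1 to 3 averaged). For AS-exos against MCAO they were C3 (-0.07 with equal totals, -0.25 with quality weights, -0.08 without both libraries, -0.59 to 0.46 leaving out 1) and Cfb (-0.01 to 0.67 leaving out 1). For AS-exos against Sham it was Cr1l (-0.15 with quantile normalization, -0.06 with equal totals, -0.05 to 0.27 leaving out 1, -0.11 with libraries 1 to 3 averaged).

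Scaling moved the median log2 change over all genes in Ctrl-exos against MCAO from -0.14 to -0.31 (equal totals), in AS-exos against MCAO from -0.17 to -0.02 (quantile) and in Ctrl-exos against Sham from 0.12 to -0.06 (equal totals). The share of calls that were higher went from 17.3 to 30.2% in AS-exos against MCAO (quantile) and from 62.5 to 40% in Ctrl-exos against MCAO (equal totals, 5 calls). Same-numbered libraries of different groups deviated together at correlations of -0.148 to 0.092, so the numbers were not taken as pairs. With the replicate block, C1qa in AS-exos against MCAO was 1.12 (adjusted p = 0.0579) and in AS-exos against Sham -0.81 (adjusted p = 0.0575), and no other member's call changed.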
